A study of Mus musculus with 12 samples.

Results

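The liver makes cholesterol, takes it up, stores it as ester and passes it into bile and high-density lipoprotein (HDL), and 28 genes that serve these steps were followed in the livers of 12 mice. They were taken as a list by function. All 28 were found in the table of 54532 genes, and all 28 were among the 11083 genes that reached a mean of 1 FPKM (fragments scaled to gene length and library size) and were tested. The list held 7 enzymes of the mevalonate pathway, 11 enzymes that turn its product into cholesterol, 4 genes of the sterol sensor, 2 genes of transport and esterification, and 4 genes of export and HDL uptake. Several well-known genes of the pathway are not in the list and were not analysed here.

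All mice were male C57BL/6J mice, an inbred strain, that entered their diets at 5 weeks of age and stayed on them for 26 weeks. The ND group ate a normal diet, the control group a high-fat diet, the HYA group the same high-fat diet with 1% HYA, and the LA group the high-fat diet with 1% linoleic acid (LA). HYA is a hydroxylated fatty acid that gut lactic acid bacteria form from LA, and both were given at the same dose for the same time. RNA was taken from whole liver, and each group was sequenced in 3 mice. Neither the hour of tissue collection nor the feeding state at collection is given in the sources used here.

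Cholesterol synthesis is governed by SREBP-2, a transcription factor held in the membrane of the endoplasmic reticulum. Its escort, Scap, carries it to the Golgi apparatus when membrane sterol is low, and the Insig proteins retain it when sterol is plentiful. The released factor binds sterol regulatory elements in the promoters of nearly every enzyme of the route, usually beside sites for the factor NF-Y, so that these genes tend to move together. Export runs under another sensor, the oxysterol receptor LXR, which drives the transporters Abca1, Abcg5 and Abcg8.

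Promoters are shown because control by SREBP-2 is described for nearly every enzyme of the route, and control by LXR for the exporters. RefSeq (GRCm38.p6) gave windows of 300 bases, 250 before to 50 after a start site, for 22 of the 28 genes. Fdps, Fdft1, Sqle, Stard4, Soat2 and Scarb1 were not matched. Both strands were searched for the sterol regulatory element TCACNCCAC and the NF-Y motif CCAAT, and no match of one overlapped a match of the other in a member window. The first was present in 1.24% of all 32851 windows and in 1 member, Hmgcs1. The second was present in 37.4% of all windows and in 19 of the 29 windows of members (65.5%), which came to 19 of 22 genes (86.4%) beside 41.1% of the 27025 genes with a window. Acat2, Scap and Abca1 held neither motif. A match is only a match of letters, and other forms of either motif were not searched. No motif of LXR was searched, so the windows say nothing on control by LXR.

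The window of Hmgcs1, the synthase that opens the route after acetoacetyl-CoA, is printed because it was the only member window with both motifs, a combination present in 0.441% of all windows. It lies at chr13:119690101-119690400 on the plus strand. Capitals mark the sterol regulatory element, centred 133 bases before the start site, and 4 NF-Y motifs, all on the opposite strand and therefore read as ATTGG. The window of Abcg5, at chr17:84682962-84683261 on the minus strand, was chosen after the values were seen because its start site lies 110 bases from a start site of Abcg8, which is transcribed the other way, and the windows share 209 bases. Capitals mark its 1 NF-Y motif, again on the opposite strand.
Hmgcs1: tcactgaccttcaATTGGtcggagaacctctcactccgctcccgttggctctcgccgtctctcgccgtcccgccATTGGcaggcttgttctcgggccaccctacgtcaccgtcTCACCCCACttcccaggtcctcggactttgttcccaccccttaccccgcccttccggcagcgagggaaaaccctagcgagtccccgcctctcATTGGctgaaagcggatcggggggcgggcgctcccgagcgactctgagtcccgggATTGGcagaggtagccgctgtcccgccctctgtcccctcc
Abcg5: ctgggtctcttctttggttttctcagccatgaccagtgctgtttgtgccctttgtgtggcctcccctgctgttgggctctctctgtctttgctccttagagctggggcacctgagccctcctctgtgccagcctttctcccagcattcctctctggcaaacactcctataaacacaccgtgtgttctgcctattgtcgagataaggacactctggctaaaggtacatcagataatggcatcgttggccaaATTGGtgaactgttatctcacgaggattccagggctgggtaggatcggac

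The libraries held 17169064 to 25220880 fragments on genes, and a member was covered by 75 to 23353 fragments in a mouse. Marker genes of hepatocytes (8 genes) were abundant in every mouse, and those of adipocytes and lymphocytes were near 0. The summed hepatocyte markers ran from 40253 to 41376 FPKM in ND-fed mice, 27258 to 30597 in control, 33268 to 34279 in HYA-treated and 29278 to 30592 in LA-treated mice. Most of this sum was Alb, with means of 29221.5 FPKM in ND-fed and 20497.2 in control mice. Markers of recruited macrophages (4.77 to 11.3 FPKM in ND-fed and 19.8 to 26.2 in control mice), stellate cells (33.5 to 43.4 and 69.8 to 90.3) and sinusoidal endothelial cells (49.5 to 62.0 and 68.3 to 71.7) ran the other way. By the test described below, 6 of the 8 hepatocyte markers were lower and 1 higher in control against ND. Of the others, 3 of 5 macrophage, 3 of 7 stellate and 2 of 6 endothelial markers were higher. In the macrophage list 2 markers averaged below 1 FPKM and were not tested, and most of the sum was Cd68. Of 6 Kupffer cell markers 1 was higher and 1 lower, and their sums overlapped (133 to 210 FPKM in ND-fed and 167 to 189 in control mice). In HYA-treated mice the macrophage markers summed to 13.6 to 16.8 FPKM and the stellate markers to 57.6 to 68.9. In whole liver, fewer cells of a type and less RNA per cell cannot be told apart, and the part of cell makeup in the differences below was not tested.

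To see how livers differed on the high-fat diet without a supplement, control mice were compared with ND-fed mice. The normal and the high-fat diet were different products, and their sterol content is not given in the sources used here. After the high-fat diet 13 of the 18 synthesis enzymes were higher and 1 was lower, and 2 of the 4 genes of export and HDL uptake were lower. Of the 28 members, 13 were higher at an adjusted p under 0.05 (46.4%, beside 16.2% of all genes tested) and 4 were lower (14.3%, beside 19.1%). All 13 that rose were enzymes. The median log2 fold change of the members was 0.36, against −0.04 over all genes tested, and that of the 18 enzymes was 0.56. Differences here and below are on the log2(FPKM + 1) scale, which understates those of genes near 1 FPKM, and were tested with limma over all genes. Of the members, 20 had ranges that did not overlap between control and ND-fed mice (71.4%, beside 45.6% of all genes).

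**Figure D1:**
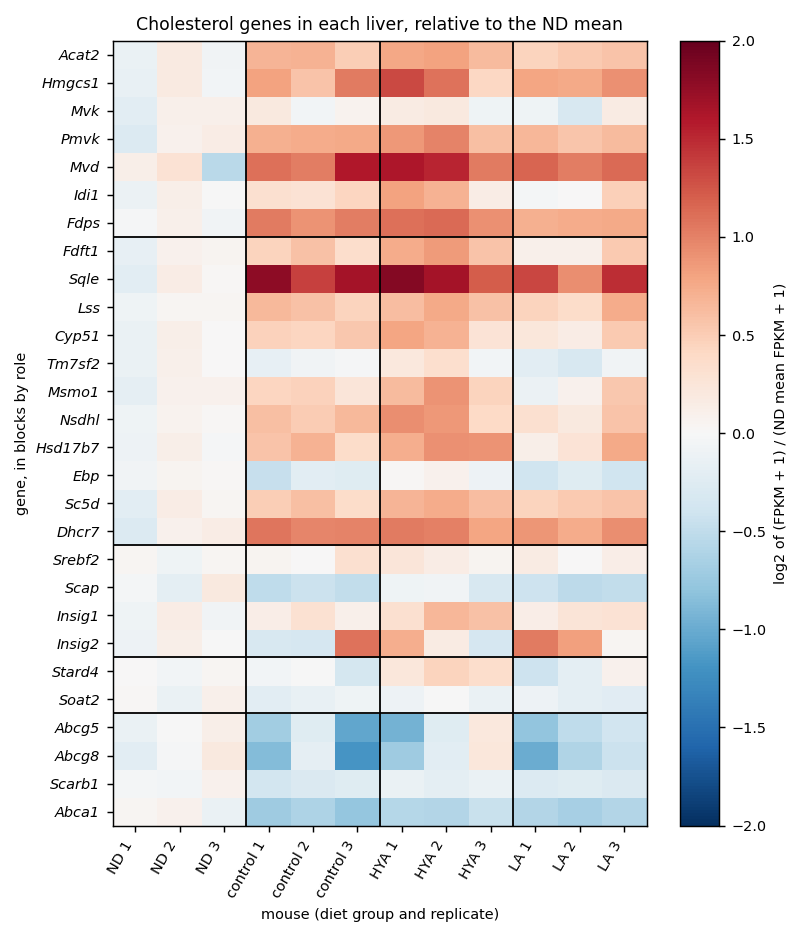
Level of the 28 genes (rows, in blocks by role, from mevalonate enzymes at the top to export at the bottom) in each of the 12 mice (columns), as log2 of FPKM + 1 over the ND mean of FPKM + 1, where red is higher than ND and blue lower. The enzyme rows are mostly red in control, HYA-treated and LA-treated mice, Sqle and Mvd most of all, and the bottom row, Abca1, is blue in all 9 mice on the high-fat diet.

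The mevalonate enzymes make the isoprene units from which sterols are built. Of the 7, 5 passed the test, all upward. Mvd, the decarboxylase that makes isopentenyl diphosphate (chr8:122433601-122443422, minus strand), was at 8.63, 9.82 and 5.06 FPKM in the ND-fed mice and at 18.01, 17.0 and 25.8 in the control mice. Every control mouse was above every ND-fed mouse, by a ratio of the means of 2.59. The difference was 1.29 on the log2 scale (SE 0.22, adjusted p = 0.00136), past the 2-fold threshold of the study as well, as 3.88% of all genes were.

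Fdps, the synthase of farnesyl diphosphate (chr3:89093588-89101959, minus strand), was at 1.06, 1.24 and 0.992 FPKM in ND-fed mice and at 3.29, 2.93 and 3.25 in control mice. The groups stood apart, with a ratio of the means of 2.88 and a log2 difference of 0.99 (SE 0.07, adjusted p = 6.24e-06). With a pseudocount of 0.1 in place of 1, the log2 difference was 1.45. Its absolute level is uncertain, since Gm43738, a gene model on the same strand that was listed at 0 in every mouse, covers 89.7% of its span, and how fragments in shared stretches were assigned is not given in the sources used here.

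Hmgcs1, whose promoter is printed above, was at 48.5, 60.7 and 51.5 FPKM in ND-fed mice and at 94.4, 79.9 and 112 in control mice, again with no overlap (log2 difference 0.81, SE 0.20, adjusted p = 0.00966). Acat2, which joins acetyl-CoA units (0.63), and Pmvk, which phosphorylates mevalonate phosphate (0.75), also rose. Mvk, the kinase before it, differed by 0.08 (95% interval −0.21 to 0.38). Idi1, the isomerase of the isoprene units, differed by 0.35 with an adjusted p of 0.139, although its ranges did not overlap.

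Among the 11 enzymes from squalene to cholesterol, 8 rose, 1 fell and 2 did not pass the test. Sqle, the monooxygenase that makes squalene epoxide (chr15:59315077-59331192, plus strand), was at 2.99, 4.12 and 3.70 FPKM in ND-fed mice and at 14.8, 10.9 and 13.5 in control mice. The lowest control mouse was above the highest ND-fed mouse, and the ratio of the means was 3.64. Its log2 difference of 1.61 was the widest of the 28 members in this comparison (SE 0.18, adjusted p = 0.000101). Dhcr7, the reductase that makes cholesterol from its last precursor (chr7:143823145-143848410, plus strand), was at 8.98, 11.8 and 12.4 FPKM in ND-fed mice and at 24.4, 22.7 and 23.0 in control mice, a log2 difference of 1.03 (SE 0.11, adjusted p = 6.27e-05). Sqle, Mvd and Dhcr7 were the 3 members past both thresholds on the log2(FPKM + 1) scale. Fdps, with a ratio of the means of 2.88, stayed just below the second at 0.99, as this scale understates genes near 1 FPKM.

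Lss, which closes the sterol rings (0.57), Nsdhl (0.59) and Hsd17b7 (0.55), which act in C4 demethylation, Cyp51, the lanosterol demethylase (0.48), Sc5d, the sterol desaturase (0.50), and Fdft1, squalene synthase (0.46), rose by less. Fdft1 shares 774 bases with Ctsb on the opposite strand, a gene at 125 FPKM beside 28.8 for Fdft1 on average, and fragments there cannot be told apart without strand. Fdft1 lost its call without the first ND-fed mouse (adjusted p = 0.0571) or the second control mouse (0.052). Cyp51 lost it without the first ND-fed (0.0621) or the third control mouse (0.0516), and Hsd17b7 without the second control mouse (0.0506). Under the alternatives given below, their log2 differences were at least 0.38 for Fdft1, 0.42 for Cyp51 and 0.42 for Hsd17b7. Msmo1, the C4 methyl oxidase, differed by 0.38 (adjusted p = 0.0962, and 0.0396 without the third LA-treated mouse), and Tm7sf2, a sterol reductase, by −0.09 (adjusted p = 0.564). Ebp, the sterol isomerase, went the other way from its neighbours in the route. It was at 77.2, 84.1 and 82.3 FPKM in ND-fed mice and at 58.5, 70.1 and 68.8 in control mice, a log2 difference of −0.30 (SE 0.08, adjusted p = 0.0151), and its groups did not overlap. The call was lost without the second ND-fed mouse (adjusted p = 0.0527) or the first control mouse (0.0572).

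Of the 4 genes of the sterol sensor, 1 fell and 3 did not pass the test. Scap, the escort of SREBP-2, was at 21.6, 19.2 and 25.4 FPKM in ND-fed mice and at 15.3, 16.2 and 15.5 in control mice, and it fell by 0.46 on the log2 scale (SE 0.10, adjusted p = 0.00377) with no overlap. Srebf2, which encodes SREBP-2 itself, was at 9.18 to 10.1 FPKM in ND-fed mice and at 9.85 to 12.4 in control mice, a difference of 0.13 (95% interval −0.06 to 0.32). Insig1, a retention factor that is also a target of SREBP-2, was at 124, 145 and 125 FPKM in ND-fed mice and at 144, 162 and 142 in control mice. Its ranges overlapped, and the difference was 0.18 (adjusted p = 0.179). On the TPM scale, which rescales each mouse to the same total, Insig1 (0.42, adjusted p = 0.00366) and Srebf2 (0.34, adjusted p = 0.0141) were called higher and Scap was not called (−0.24, adjusted p = 0.0635).

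Stard4, a carrier that moves cholesterol between membranes, was at 25.4, 24.2 and 25.9 FPKM in ND-fed mice and at 24.3, 25.2 and 19.4 in control mice, a log2 difference of −0.14 (adjusted p = 0.437). Soat2, which esterifies cholesterol in hepatocytes, was at 25.4, 22.6 and 27.1 FPKM in ND-fed mice and at 21.6, 22.5 and 23.5 in control mice, a log2 difference of −0.14 (adjusted p = 0.141). Both differences turned to 0.09 with TPM, and neither passed the test on either scale. Soat2 was called lower without the second ND-fed mouse (−0.21, adjusted p = 0.0403).

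All 4 genes of export and HDL uptake had a log2 difference below 0, and 2 passed the test. Abca1, which loads cholesterol onto apolipoprotein A-I, was at 36.4, 37.5 and 32.4 FPKM in ND-fed mice and at 21.3, 22.8 and 20.2 in control mice. The groups stood well apart, and the log2 difference was −0.70 (SE 0.07, adjusted p = 3.9e-05). Scarb1, the HDL receptor, was at 22.6 to 25.0 FPKM in ND-fed mice and at 17.9 to 19.6 in control mice, a log2 difference of −0.30 (SE 0.05, adjusted p = 0.00184). With TPM, which moved the median of all genes from −0.04 to 0.15, the log2 difference of Abca1 was still below 0 and called, whereas those of Scarb1, Scap and Ebp were no longer called. With TPM, 17 members were higher and 1 lower, and the higher share of all calls went from 45.9% to 83.8%.

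The half-transporters Abcg5 and Abcg8, which together pump sterols into bile, had log2 differences of a size like that of Abca1 but a wider spread, and did not pass the test. Abcg5 (chr17:84658234-84683011, minus strand) was at 44.7, 48.9 and 53.5 FPKM in ND-fed mice and at 29.9, 41.2 and 23.4 in control mice, a log2 difference of −0.66 (SE 0.27, adjusted p = 0.0775). Abcg8 (chr17:84676302-84700333, plus strand) was at 36.9, 42.0 and 49.1 FPKM in ND-fed mice and at 23.0, 37.4 and 18.2 in control mice, a log2 difference of −0.74 (SE 0.28, adjusted p = 0.0596). In both genes the second control mouse stood above the other control mice, and in Abcg8 it reached into the ND range. Their gene models share 6710 bases on opposite strands, and fragments there cannot be told apart without strand. Both were called lower without the second control mouse (adjusted p = 0.0362 for Abcg5 and 0.0131 for Abcg8), and also without the first (0.0264 and 0.0416) or the third HYA-treated mouse (0.043 and 0.0456), which enter the fit only through the shared spread. Abcg5 was also called in the 2-group fit (adjusted p = 0.045, 0.0685 for Abcg8) and Abcg8 by voom on recovered fragments (adjusted p = 0.0415, 0.0577 for Abcg5).

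**Figure D2:**
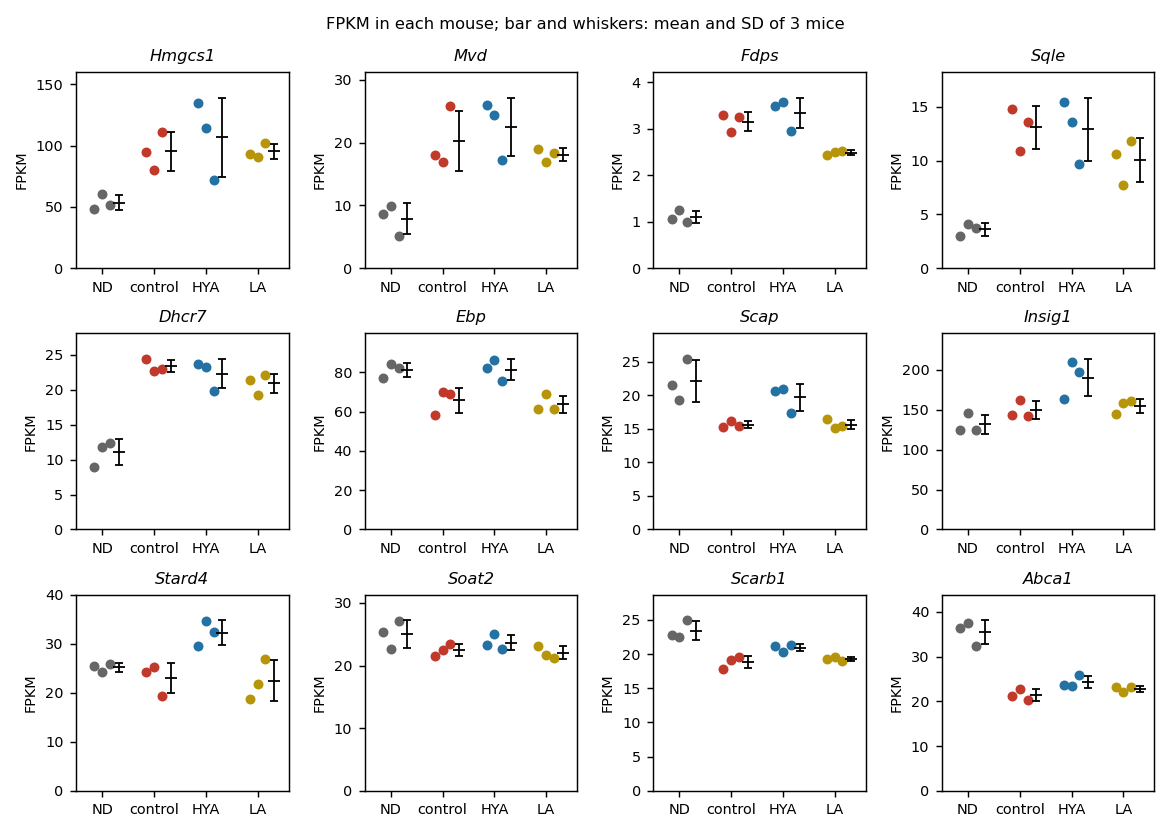
FPKM of 12 of the genes in each mouse (points, coloured by diet group) with the mean and SD of the 3 mice of a group beside them, each panel starting at 0. Control mice lie above ND-fed mice without overlap for Hmgcs1, Mvd, Fdps, Sqle and Dhcr7 and below them for Ebp, Scap, Scarb1 and Abca1.

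Whether HYA brought these genes back toward the ND level was asked by comparing HYA-treated with control mice. No member was called in either direction, where 1.57% of all genes were called higher and 1.23% lower. At an unadjusted p under 0.05 there were 7 of the 28 members, beside 2055 of the 11083 genes tested, in either direction. All 7 were upward, namely Tm7sf2, Ebp, Scap, Insig1, Stard4, Scarb1 and Abca1. Voom on recovered fragments called 1 member, Stard4. The median log2 difference was 0.15 beside 0.02 over all genes, and 26 of 28 members were above 0. With TPM, where the median of all genes was −0.08, that of the members was 0.026 and 17 were above 0. Ranges did not overlap for 8 members (28.6%, beside 21.6% of all genes), each time with HYA-treated mice higher.

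None of the 13 enzymes that rose on the high-fat diet was called lower with HYA. Sqle was at 15.4, 13.6 and 9.64 FPKM in HYA-treated mice, a log2 difference from control of −0.03 (95% interval −0.44 to 0.37), and all of these mice were above the highest ND-fed mouse. Dhcr7 was at 23.7, 23.3 and 19.9 FPKM (−0.07, 95% interval −0.31 to 0.17). Mvd was at 26.0, 24.3 and 17.1 FPKM (0.15, 95% interval −0.35 to 0.64). Fdps was at 3.48, 3.58 and 2.96 FPKM and Hmgcs1 at 135, 115 and 71.7 FPKM, and in every one of these genes the third HYA-treated mouse was the lowest of its group. Of the 18 enzymes, 15 had no overlap between HYA-treated and ND-fed mice, all with HYA higher, and for 13 enzymes there was no overlap between LA-treated and ND-fed mice, 12 with LA higher and 1 with LA lower. Over all genes 35.9% did not overlap between HYA-treated and ND-fed mice, and 47% between LA-treated and ND-fed mice.

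The smallest adjusted p-values in HYA-treated against control mice belonged to Stard4, Ebp, Insig1 and Scap. Stard4 was at 29.6, 34.7 and 32.4 FPKM, above every control and every ND-fed mouse, with a log2 difference from control of 0.48 (SE 0.13, adjusted p = 0.0717). Ebp was at 82.4, 86.4 and 75.6 FPKM, above every control mouse and across the ND range, with a log2 difference of 0.31 (SE 0.08, adjusted p = 0.0735, and 0.0488 without the second control mouse). Insig1 was at 164, 209 and 197 FPKM, above every control mouse (0.34, adjusted p = 0.0945), and Scap was at 20.7, 21.0 and 17.4 FPKM (0.31, adjusted p = 0.112). In the export group Abca1 was at 23.6, 23.3 and 25.8 FPKM, above every control mouse by a log2 difference of 0.17 and below every ND-fed mouse. Soat2 was at 23.2, 25.0 and 22.7 FPKM, between the lowest control mouse and the highest ND-fed mouse.

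**Figure D3:**
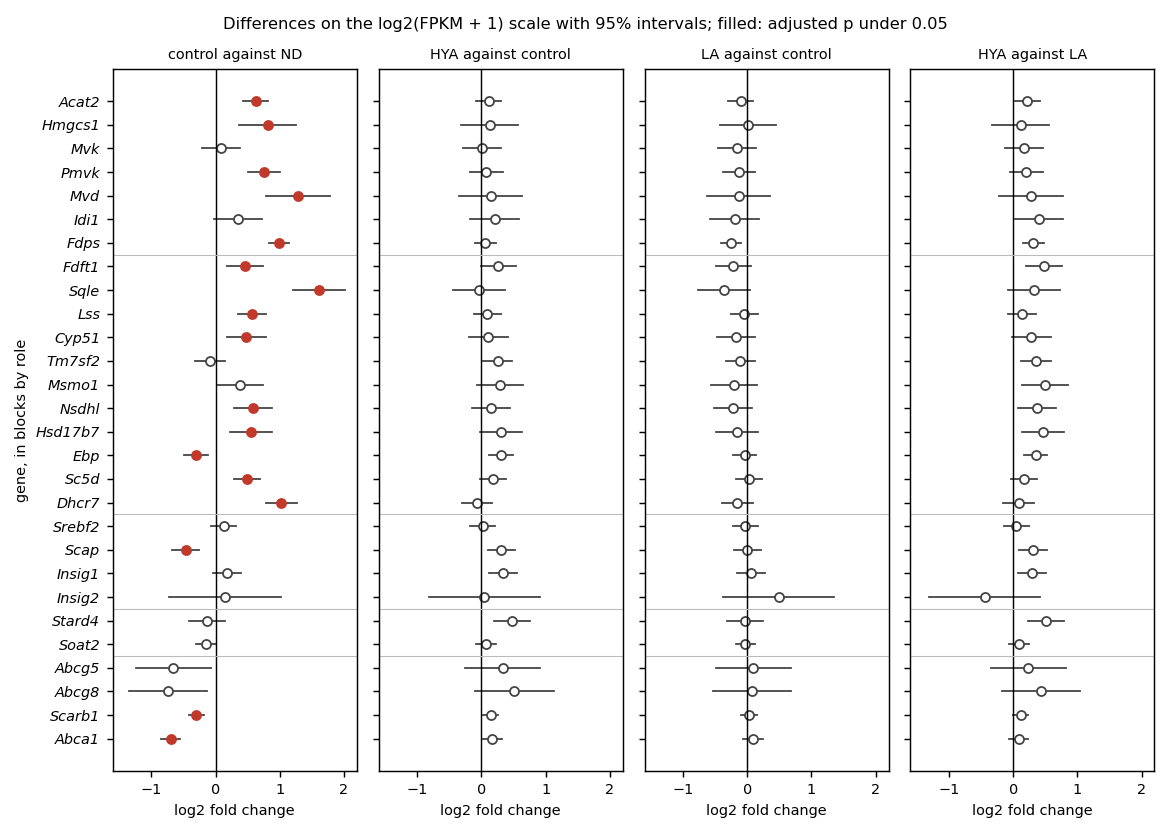
Log2 differences of the 28 genes (points) with 95% intervals (lines) in the 4 comparisons, on the log2(FPKM + 1) scale, where filled points had an adjusted p under 0.05. Filled points appear in the first comparison alone, 13 above 0 and 4 below, while most points lie slightly right of 0 for HYA against control and HYA against LA and most enzymes slightly left of 0 for LA against control.

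LA, the parent fatty acid, was compared with control in the same way. No member was called, and over all genes 0% were called higher and 0% lower, the smallest adjusted p being 0.341 and 294 genes having an unadjusted p under 0.05. Voom on recovered fragments also called 0 genes. The median log2 difference of the members was −0.08, and 16 of the 18 enzymes were below 0. Fdps was at 2.43, 2.496 and 2.53 FPKM, below every control mouse, with a log2 difference of −0.25 (95% interval −0.41 to −0.09), and it was the 1 member with an unadjusted p under 0.05 (adjusted p = 0.999). Sqle was at 10.6, 7.76 and 11.8 FPKM, a log2 difference of −0.36 (95% interval −0.77 to 0.05). Ranges did not overlap for Pmvk, Fdps and Dhcr7, all lower, which is 10.7% of the members beside 7.55% of all genes.

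HYA and LA, which differ by the water that a bacterial enzyme adds across a double bond of LA, were then compared directly at the same dose and time. These comparisons share mice with those above, the control and LA groups being used more than once. No member was called, beside 0.235% of all genes higher and 0.253% lower. An unadjusted p under 0.05 was found for 12 of the 28 members, all with HYA higher, beside 1908 of the 11083 genes tested, in either direction. Voom on recovered fragments called 0 members. All 18 enzymes were above 0, with a median log2 difference of 0.30, and over the 28 members it was 0.28 beside 0.01 for all genes. Ranges did not overlap for 11 members (39.3%, beside 25.2% of all genes). Fdps differed by 0.31 (SE 0.07) and Ebp by 0.35 (SE 0.08), both with an adjusted p of 0.0726 (0.035 for Ebp without the first control mouse), Stard4 by 0.52 (SE 0.13, adjusted p = 0.0822) and Fdft1, at 37.3, 40.1 and 32.8 against 23.4, 23.4 and 31.9 FPKM, by 0.48 (SE 0.13, adjusted p = 0.0914). Among the enzymes the intervals reached as far as 0.85, for Msmo1, and among the other members to 1.05 for Abcg8 and −1.31 for Insig2.

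Single mice weighed on these comparisons. The summed FPKM of the 18 enzymes was 413, 500.1 and 462 in ND-fed mice, 637, 646 and 647 in control mice, 779, 781 and 630.3 in HYA-treated mice and 582, 590 and 657 in LA-treated mice. The control mice were close together, whereas the third HYA-treated mouse fell below all control mice and the third LA-treated mouse rose above them. The third HYA-treated mouse, which was also the deepest library (25220880 fragments), was lowest of its group for 17 of 18 enzymes, the third LA-treated mouse highest for 15, and among ND-fed mice the first was lowest for 16 and the second highest for 15. In the control group no such order was seen, the mice being lowest for 3, 9 and 6 enzymes and highest for 5, 6 and 7. Without the third HYA-treated mouse the median log2 difference of the members in HYA against control was 0.27, and without the third LA-treated mouse that in LA against control was −0.14.

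**Figure D4:**
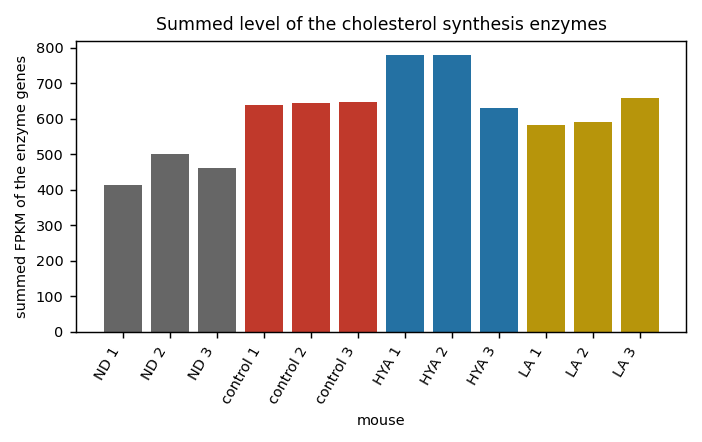
Summed FPKM of the 18 synthesis enzymes in each mouse, coloured by diet group, on an axis from 0. The ND-fed mice (413 to 500.1) lie below all other mice (582 to 781), and the third HYA-treated mouse (630.3) is below the control mice while the other HYA-treated mice are above them.

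Insig2, Abcg5 and Abcg8 spanned the widest ranges of the 28 members over the 9 high-fat-fed mice. Insig2, a retention factor of SREBP-2 whose liver form is regulated apart from sterol (chr1:121304353-121332589, minus strand), was at 71.3, 82.9 and 75.9 FPKM in ND-fed mice. It was at 61.3, 60.7 and 164 FPKM in control mice, at 128, 86.2 and 60.9 in HYA-treated mice and at 158, 136 and 78.6 in LA-treated mice. From lowest to highest the ratio was 2.70 for Insig2, 2.42 for Abcg5 and 2.75 for Abcg8, and at most 2.10 for any other member. The spread left wide limits on the diet comparisons of Insig2, such as a log2 difference of 0.15 in control against ND with a 95% interval from −0.72 to 1.01. That difference was −0.32 without the third control mouse.

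The same mice differed in their clock genes, which run on a daily cycle in liver and were added beside these members after their values were seen. Arntl, a core activator of the clock, was at 3.23 FPKM in the third control mouse, at 2.78 and 2.06 in the first and second LA-treated mice and at 1.80 in the first HYA-treated mouse. It was at 0.946 in the second HYA-treated mouse, and at 0.156 to 0.316 in the remaining 4 high-fat-fed mice. Dbp, which runs opposite to Arntl, was at 4.53 FPKM in the third control mouse and at 57.0 in the third HYA-treated mouse. Ranked from the highest Arntl down, the first 6 of the 9 high-fat-fed mice had the same ranks for Insig2, and the last 3 lay within 60.7 to 61.3 FPKM. Abcg5 and Abcg8 were lowest in the third control mouse and highest in the third HYA-treated mouse.

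The ND-fed mice were alike in Arntl (1.73 to 2.04 FPKM). The summed FPKM of the 18 enzymes did not follow this order. The third LA-treated and the third HYA-treated mouse were both low in Arntl, yet they ranked 3 and 7 of 9 in that sum. The former was highest of its group for most enzymes and the latter lowest. Acat2, Fdft1, Lss, Msmo1 and Hsd17b7 were lower in the third control and the first and second LA-treated mice than in all other high-fat-fed mice. Those mice were the highest in Arntl, and this did not hold for the other enzymes. These ranks are a description of 9 livers taken in 3 diet groups and rest on values chosen after they were seen. Whether the mice were collected at different hours was not tested, as no hour is given.

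**Figure D5:**
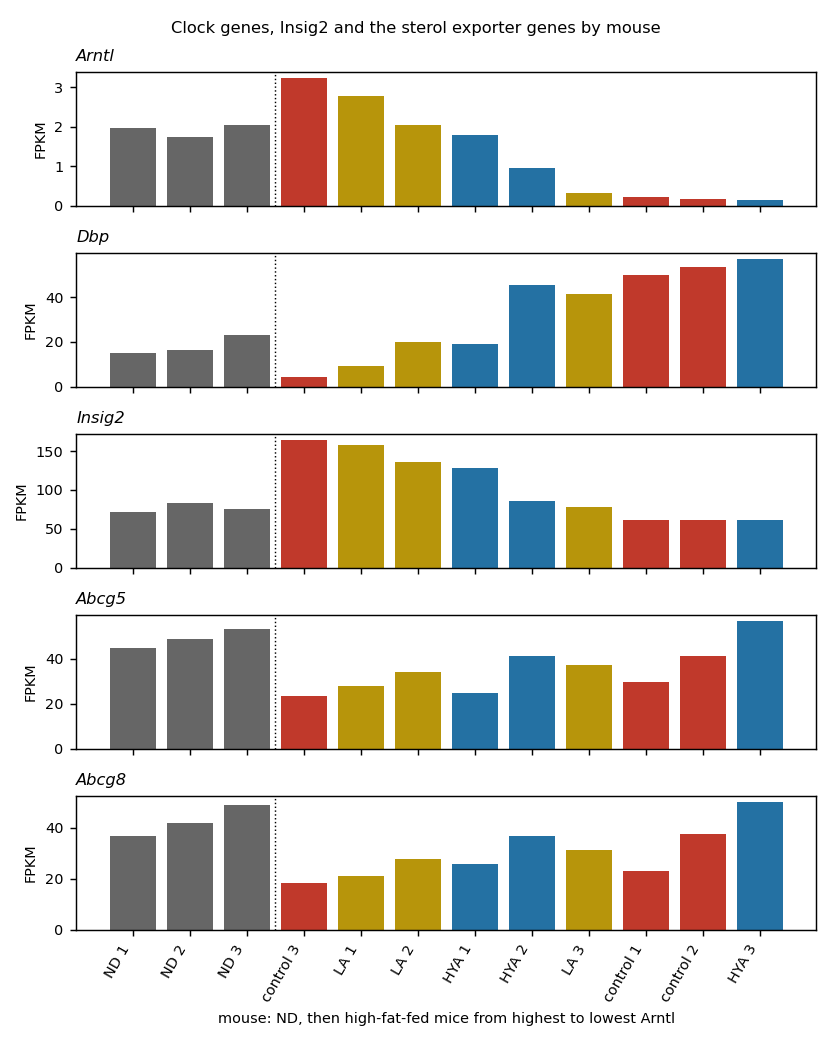
FPKM of the clock genes Arntl and Dbp and of Insig2, Abcg5 and Abcg8 in each mouse, with ND-fed mice at the left and the 9 high-fat-fed mice ordered from highest to lowest Arntl, coloured by diet group. Insig2 falls from 164 to about 61 FPKM along this order while Dbp rises from 4.53 to 57.0. Control mice are at places 1, 7 and 8 of the 9, and the third HYA-treated mouse is last.

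With a clock index of each mouse (the mean log2 level of 6 genes that run with Dbp minus that of 4 that run with Arntl) as a covariate, also chosen after the values were seen, more members were called in control against ND. The counts became 15 higher and 7 lower, while the shares over all genes went from 16.2% to 17.3% higher and from 19.1% to 21% lower. Insig2 was then called higher, by 0.60 on the log2 scale (adjusted p = 0.000228), and Abcg5 and Abcg8 lower, by −0.91 (adjusted p = 0.00174) and −1.004 (adjusted p = 0.00109). Since the clock genes were brought in after the spread of these genes was seen, their p-values here are a description and no test. Srebf2 (0.19, adjusted p = 0.0478) was also added to the higher and Stard4 (−0.26, adjusted p = 0.0244) to the lower members. The index ran from 0.54 to 0.76 in ND-fed mice and from −0.40 to 2.85 in control mice, so that its slope rested mostly on high-fat-fed mice. The answer of the index itself to diet cannot be told apart from other differences between mice. The enzymes changed little, Sqle being at 1.66 and Mvd at 1.44. Stard4 was called higher in HYA against control (0.45, adjusted p = 0.016) and in HYA against LA (0.41, adjusted p = 0.0464), where 2.66% and 0.28% of all genes were called higher.

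Other genes around the pathway, taken from lists by function, were called in both directions in control against ND, where 16.2% of all genes were higher and 19.1% lower. Of 11 genes for SREBP processing and sterol-regulated degradation, 3 were higher and 5 lower, with a median of −0.17, and they included the ubiquitin ligase Rnf145 (0.37). Of 11 tested genes on the non-sterol branches of the mevalonate route, 2 were lower and no other was called, Rabggta (−0.33) and Rabggtb (−0.31), subunits of the enzyme that prenylates Rab proteins. Their share is near that of all genes, and the median of that list was −0.04, as was that of all genes. Of 12 tested genes of intracellular sterol transport, 3 were higher and 1 lower, among them Tmem97, a binding partner of a lysosomal sterol carrier (0.58), and Lipa, the lysosomal lipase of cholesteryl esters (0.55). No gene of these 3 lists was called in HYA against control.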

How the data were processed

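Liver RNA of 12 mice (ND, control, HYA and LA, 3 each, grouped by the diet in the sample labels) was sequenced as paired ends. The authors deposited FPKM values, 1 column a mouse, beside the position and length of each gene. The submitters' processing notes name fastp, HISAT2 2.0.5, featureCounts 1.5.0-p3 and the build GRCm38. The methods of the study speak of TPM, but the column totals differed (342146 to 429286), so that the values were read as FPKM. TPM was computed as an alternative.

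The 11083 genes averaging 1 FPKM or more were tested with limma 3.58.1 in R 4.3.3 on log2(FPKM + 1), with empirical Bayes with trend, two-sided, and all 12 mice in 1 fit. A gene was called at a Benjamini-Hochberg adjusted p under 0.05 over all genes tested. A log2 fold change above 1 in size was the second threshold, as in the study. The alternatives were another pseudocount, no filter, median-ratio scaling, TPM, voom on fragments recovered from the FPKM steps (at least 99.97% of the values came out whole within 0.05), a 2-group fit, a replicate block and leaving out each mouse. The scripts were tested on simulated data. No columns were identical, and correlations within groups were 0.983 to 0.990. Replicate numbers were not read as pairs of mice, since no pairing is stated. Of 12 same-number pairs, 2 had deviations correlated above 0.1, both in HYA against LA (0.22 and 0.29). The lowest correlation was −0.40, in LA against control. Whether mice of the same number shared a batch was not tested.

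The members, lists and alternatives were chosen with earlier results of these data known. Values of every mouse are given for members past both thresholds, for the 2 members of each role with the widest difference in control against ND, and for others added after their values were seen (Hmgcs1, Ebp, Abcg5, Insig2, Fdft1 and the clock genes). From each other list at most the 2 called genes with the widest difference in a comparison are named, and the level of 1 gene that the rule would name is not reported here. Promoters were to be printed for enzymes with a sterol regulatory element.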

Additional observations from a re-analysis of the deposited data

How the results depend on the processing

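The 10 enzymes Acat2, Hmgcs1, Pmvk, Mvd, Fdps, Sqle, Lss, Nsdhl, Sc5d and Dhcr7, and Abca1, kept their calls in control against ND under all 20 alternatives. Among these, leaving out an HYA-treated or LA-treated mouse cannot move the difference and acts only through the shared spread. Idi1 and Msmo1, not called as tested, were called higher with TPM and in the 2-group fit, and Msmo1 also without the third LA-treated mouse. With TPM, 1 member was lower in control against ND, the median of the members was 0.58, Stard4 was at 0.0920 and Soat2 at 0.0855 (both reversed in sign, neither called), and the medians were 0.026 in HYA against control and 0.17 in HYA against LA. By construction TPM multiplies every value of a mouse by the same factor, which moves genes of low level less once 1 is added before the log2. The members' median minus that of all genes was 0.41 as tested and 0.44 with TPM in control against ND, and 0.13 and 0.11 in HYA against control. Voom on recovered fragments called 1 member higher in HYA against control. The clock covariate, chosen after seeing the data, gave 7 lower in control against ND, and 1 higher in HYA against control and 1 in HYA against LA. With the replicate block, though no pairing of the mice is stated, 2 members were higher in HYA against control (Ebp and Insig1) and 1 in HYA against LA (Ebp). The counts in control against ND were then 13 higher and 5 lower (Abcg8 added, adjusted p = 0.0442). Leaving out 1 mouse gave 0 to 1 members higher in HYA against control and in HYA against LA, medians from 0.11 to 0.27 in HYA against control and from −0.14 to −0.042 in LA against control, and −0.32 to 0.39 for Insig2 in control against ND. Over all genes, TPM called 3789 higher and 735 lower in control against ND (1795 and 2115 as tested), and 101 and 426 in HYA against control (174 and 136). In HYA against LA (26 and 28), TPM called 35 and 161, voom 99 and 110 and the replicate block 146 and 112. Without the filter on low values HYA against control had 41 and 64 calls and HYA against LA 0. The 2-group fit gave 0 calls in HYA against control and 61 higher and 33 lower in HYA against LA. Leaving out 1 mouse gave 0 to 377 higher in HYA against control (0 without the second HYA-treated mouse) and 0 to 152 in HYA against LA. Beyond construction, the cause of these changes was not tested.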

Other observations

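Genes next to the cholesterol route, again in lists by function, were set beside the members in control against ND. Of 9 genes of fatty acid synthesis, the branch under SREBP-1, 7 were higher and the other two were not called. Over all genes 16.2% were higher and 19.1% lower, against which every count here is to be read. Their median log2 difference was 0.84, and they included Elovl6, which lengthens fatty acids (1.22, adjusted p = 0.000191 by limma), and Fasn, fatty acid synthase (1.10, adjusted p = 0.0013). Of 8 genes of LXR and its targets other than the exporters, 5 were higher and 1 lower, with a median of 0.33. Pltp, the phospholipid transfer protein, rose by 1.43 (adjusted p = 4.98e-05) and Arl4c by 0.49, whereas Abca1, a target of the same receptor, fell by 0.70.

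Of 5 tested genes of lipoprotein receptors and cholesteryl ester handling, 1 was higher and 4 lower. Sort1, a sorting receptor tied to lipoprotein secretion, fell by 1.27 on the log2 scale (adjusted p = 6.45e-05), and Nceh1, a cholesteryl ester hydrolase, rose by 0.90 (adjusted p = 0.000361). Lrp1, a remnant receptor, was the 1 gene of these 3 lists called in HYA against control, higher by 0.30 (adjusted p = 0.0355). Of 12 tested clock genes, 2 were lower in control against ND, Clock (−0.73) and Nr1d1 (−0.55), and no other was called, a share near that of all genes.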
